A study of Mus musculus with 4 samples.

Results

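The ErbB family comprises 4 receptor tyrosine kinases, Egfr, Erbb2, Erbb3 and Erbb4, and a set of growth factors that bind them. The genes followed here were the 4 receptors and 6 of their ligands, Egf, Tgfa, Areg, Ereg, Hbegf and Btc, taken by the gene name of the probes on the array. No measured value enters this rule, but the genes had been picked from the family with results of these same 4 arrays known, so their values are given as a description. They accounted for 10 of 28090 gene names, 25 of 41174 probes and 70 of the 43379 spots that were not controls. Prostate RNA of male mice had been hybridised to Agilent arrays with the dye Cy3, with 1 array per group and 4 arrays in all, all on 1 slide with 1 scan time. The groups were TRAMP mice given TmT, TRAMP mice given olive oil, C57BL/6 mice given TmT and C57BL/6 mice given olive oil. TmT is a mixture of tocopherols, forms of vitamin E, in which gamma-tocopherol predominates. Its dose was 600 mg/kg by mouth, olive oil was the vehicle, and the tissue was taken 12 hours later. All mice were 8 weeks old, were kept on an AIN-76A diet from the week before and went without food overnight. The TRAMP transgene brings the SV40 early region under a rat probasin promoter that is active in prostate epithelium, and the labels give no background strain for these mice. Each group had 3 mice, and the labels do not say whether an array carried RNA of 1 mouse or of a pool.

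ErbB receptors span the cell membrane and signal as pairs. A bound ligand opens the receptor for pairing, the kinases of the pair phosphorylate each other's tails, and adaptor proteins then carry the signal to the Ras-ERK and PI3K-Akt routes. Erbb2 has no known ligand and acts as a partner of the others, Erbb3 has little kinase activity of its own, and Erbb3 and Erbb4 are receptors for neuregulins. The ligands are made as membrane proteins and are released by proteases. In the mouse, Egf is abundant in salivary gland and kidney and is also made by secretory epithelium such as that of the prostate.

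Levels below are log2 intensities relative to the 75th percentile of the same array, so a level of 0 is the intensity at that percentile. A difference is a log2 difference between 2 arrays, and its ± value is the error of the spots, which says nothing of the spread between mice. No test was run, since each group has 1 array and the genes had been picked with results known, and a difference of at least 2-fold (1 on the log2 scale) in probes well above background on both arrays served as the size to report. The array of TRAMP mice after TmT was the dimmest, with a 75th percentile of 71.3 intensity units and 63.9% of spots well above background, against 118 to 161 units and 68.1% to 74.1% on the other arrays. The labelled tissue was checked through 9 markers of luminal epithelium, whose summed level was 283 times the 75th percentile in TRAMP mice after TmT, 235 in TRAMP mice after oil, 297 in C57BL/6 mice after TmT (over 8 of them, since Krt19 had no usable spot there) and 293 in C57BL/6 mice after oil. Secretory genes of the seminal vesicle, a neighbouring gland, were above background on all 4 arrays with summed levels of 1782 to 2141. The 4 comparisons share arrays with each other, so their values are given side by side and are not independent.

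All 4 arrays read 16 of the 25 probes well above background, some arrays read 5 of them so, and none read the other 4. Areg and Btc had no probe above background on any array, so the data give no level for these ligands. Erbb3, Egf and Hbegf lay above the 75th percentile by their brightest probe, Egfr lay close to it, and Erbb2, Erbb4, Tgfa and Ereg lay below it. Levels of different probes also carry the binding strength of each probe, so this order describes probes and is not a ranking of the transcripts.

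**Figure D1:**
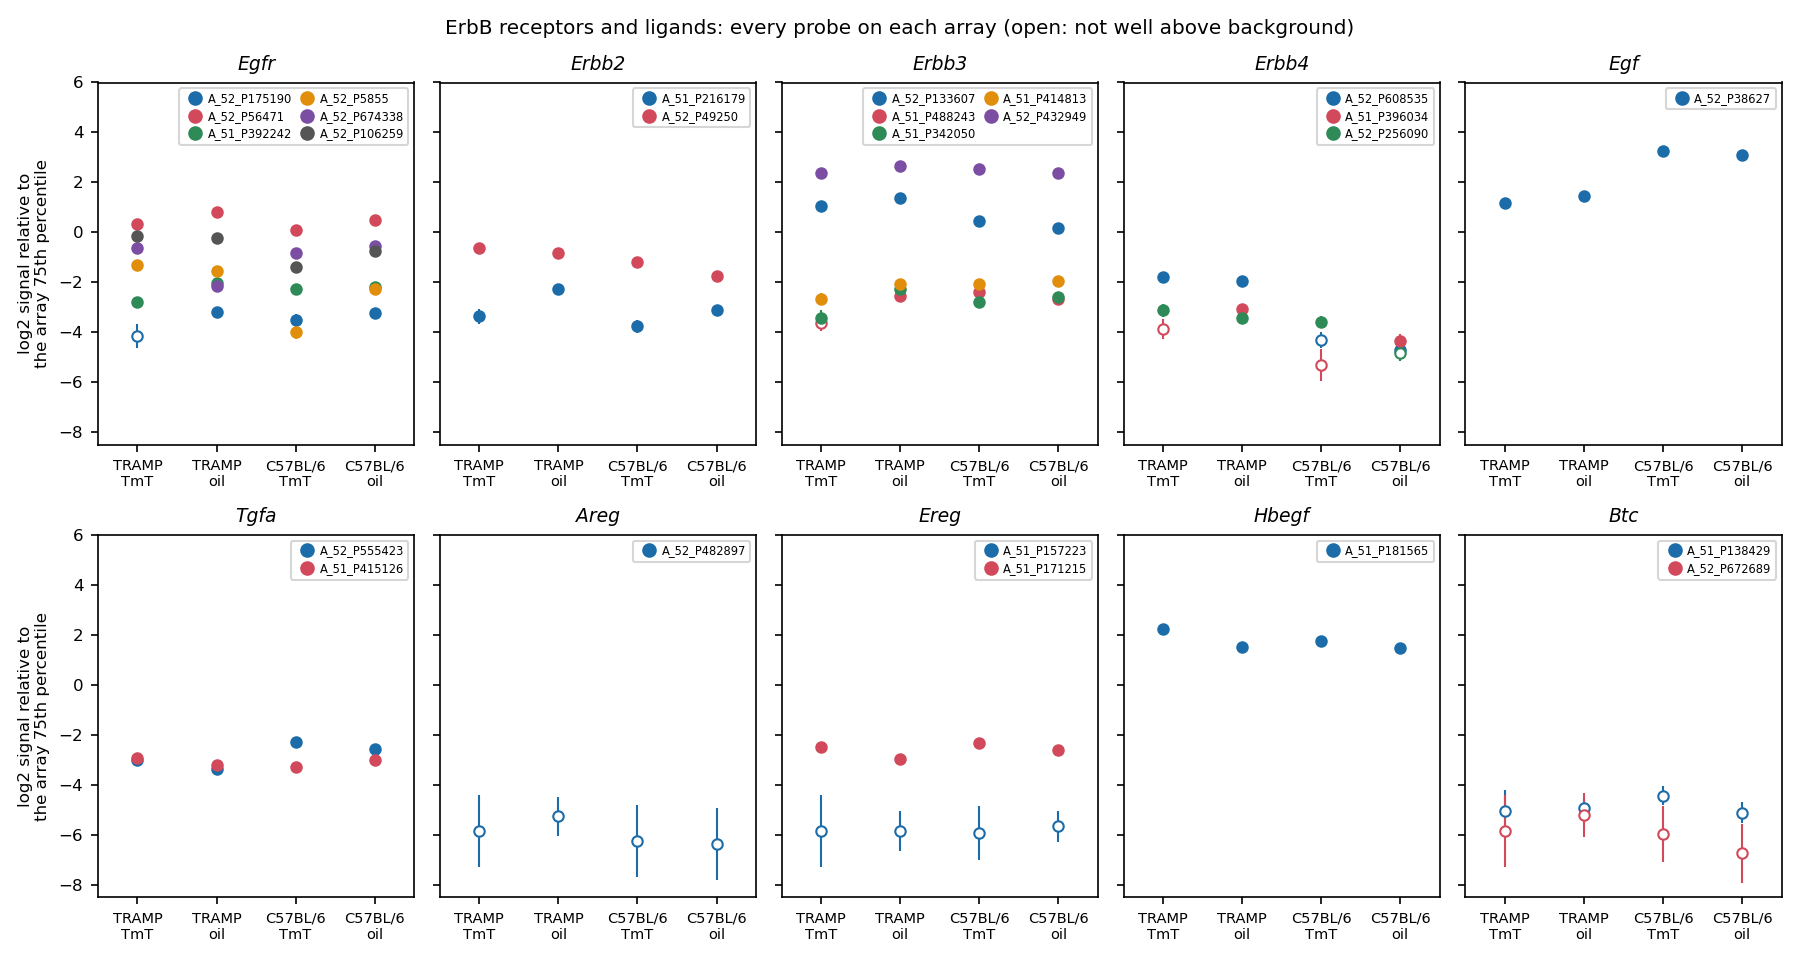
Levels of all 25 probes of the 10 genes on the 4 arrays, as log2 intensity relative to the 75th percentile of the array. Each colour is 1 probe, bars are the error of the spots, and open symbols mark probes that were not well above background. Egf stands at 1.19 and 1.44 in the TRAMP groups, below 3.24 and 3.11 in the C57BL/6 groups, and probes of Egfr, Erbb3 and Erbb4 do not move in parallel.

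The members at least 2-fold different between the lines by their brightest probes were Egf and, after oil, Erbb4. Egf was lower in TRAMP prostate than in C57BL/6 prostate after either treatment, and Erbb4 was higher in TRAMP prostate. After TmT 1 of 7 measured members, Egf, was at least 2-fold different between the lines, where 14.5% of all 17292 measured genes were that different, 8.41% higher and 6.11% lower. After oil it was 2 of 8 members, Erbb4 higher and Egf lower, where 15.6% of 18901 genes were that different, 7.74% higher and 7.84% lower. Counts from so few members do not set them apart from all genes. The median difference of the members was -0.19 after TmT, against 0.01 for all genes, and 0.16 after oil, against -0.07 for all genes. Centring the arrays on their medians changed the balance of all genes after TmT, so that 45.7% of the different genes were higher in TRAMP mice, against 57.9% with the 75th percentile.

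Among the receptors, by their brightest probes, Erbb4 differed most between the lines. Erbb4 is a receptor for neuregulins and for Hbegf and Btc. Its brightest probe, A_52_P608535 (chr1:68393142-68393201, minus strand, mm9), lies in the part of the transcript before the kinase sequence, and its 60 bases are shown because it carries the largest receptor difference between the lines after oil.
Erbb4 A_52_P608535: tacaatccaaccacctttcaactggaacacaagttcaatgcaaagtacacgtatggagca
The level of this probe was -1.79 in TRAMP mice after TmT, -1.94 in TRAMP mice after oil, -4.31 in C57BL/6 mice after TmT and -4.70 in C57BL/6 mice after oil. Both TRAMP arrays were thus brighter than both C57BL/6 arrays, where the signal was close to background, and the value of C57BL/6 mice after TmT was not well above background. The probe was at least 5.74-fold higher in TRAMP mice after TmT, and after oil the difference between the lines was 2.76 ± 0.34, or 6.76-fold. The intensities behind these values were small, 20.6 and 36.2 units in TRAMP mice after TmT and after oil, against 5.90 and 6.21 units in C57BL/6 mice after TmT and after oil.

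A second Erbb4 probe, A_51_P396034, had levels of -3.88 in TRAMP mice after TmT, -3.05 in TRAMP mice after oil, -5.33 in C57BL/6 mice after TmT and -4.34 in C57BL/6 mice after oil, with neither TmT array well above background. It was higher in TRAMP mice after oil by 1.29 ± 0.31. The last Erbb4 probe, A_52_P256090, whose 60 bases span 28839 bases of the genome and so cross an intron, had levels of -3.13 in TRAMP mice after TmT, -3.41 in TRAMP mice after oil, -3.57 in C57BL/6 mice after TmT and -4.81 in C57BL/6 mice after oil. It was 0.45 ± 0.35 higher in TRAMP mice after TmT, and at least 2.64-fold higher after oil, because C57BL/6 mice after oil were not well above background. All 3 Erbb4 probes were therefore higher in TRAMP mice after oil, by amounts that differ between probes. With normexp, another background correction, and an offset of 50 units, the brightest probe differed by 0.75 after oil, which is less than 2-fold.

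Erbb2, the partner receptor without a known ligand, was higher in TRAMP mice by less than 2-fold. Its brightest probe, A_52_P49250 (chr11:98298103-98298162, plus strand, mm9), is printed 10 times on each array. Its level was -0.64 ± 0.15 in TRAMP mice after TmT (SD, n = 9 spots), -0.82 ± 0.14 in TRAMP mice after oil (SD, n = 8 spots), -1.18 ± 0.15 in C57BL/6 mice after TmT and -1.74 ± 0.14 in C57BL/6 mice after oil (SD, n = 10 spots each). The lowest spot of TRAMP mice after oil was -1.07 and the highest of C57BL/6 mice after oil was -1.52. Spots of 1 array are not replicates of mice. The share of the 245 probes printed 10 times whose spots separate in this way is not given here. The difference between the lines was 0.54 ± 0.07 after TmT and 0.93 ± 0.07 after oil. The other Erbb2 probe, A_51_P216179, had levels of -3.36 in TRAMP mice after TmT, -2.28 in TRAMP mice after oil, -3.76 in C57BL/6 mice after TmT and -3.10 in C57BL/6 mice after oil. It was higher in TRAMP mice by 0.40 ± 0.40 after TmT and by 0.82 ± 0.23 after oil, so both Erbb2 probes pointed the same way between the lines.

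Erbb3, which pairs with Erbb2, was read by 5 probes. The brightest, A_52_P432949, had levels of 2.36 in TRAMP mice after TmT, 2.66 in TRAMP mice after oil, 2.56 in C57BL/6 mice after TmT and 2.40 in C57BL/6 mice after oil. These values span less than 2-fold, and the difference between the lines was -0.20 ± 0.20 after TmT and 0.27 ± 0.20 after oil. The probe nearest the start of the transcript, A_52_P133607, gave another picture, with levels of 1.06 in TRAMP mice after TmT, 1.39 in TRAMP mice after oil, 0.47 in C57BL/6 mice after TmT and 0.18 in C57BL/6 mice after oil. Here both TRAMP arrays exceeded both C57BL/6 arrays, by 0.59 ± 0.21 after TmT and by 1.21 ± 0.20 after oil. The remaining 3 Erbb3 probes were dim, at -3.61 to -1.95, and went the other way after TmT: A_51_P342050 was lower in TRAMP mice, at -0.62 ± 0.36, A_51_P414813 at -0.59 ± 0.27, and A_51_P488243 was at least 2.22-fold lower. After oil they differed between the lines by -0.13 to 0.35. With the normexp background the after-TmT differences of A_51_P342050 and A_51_P414813 were 0.22 and 0.15.

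Egfr, the receptor of Egf, Tgfa and most other members, was covered by 6 probes that disagreed. The brightest, A_52_P56471 (chr11:16783545-16783604, plus strand, mm9), had levels of 0.33 in TRAMP mice after TmT, 0.81 in TRAMP mice after oil, 0.11 in C57BL/6 mice after TmT and 0.49 in C57BL/6 mice after oil. It differed between the lines by 0.22 ± 0.21 after TmT and by 0.32 ± 0.20 after oil. The files assign it to the RefSeq transcript named variant 2 in the gene table, and whether other Egfr transcripts share its sequence was not examined. They assign to the same transcript A_51_P392242, a probe printed 10 times. That probe had levels of -2.79 ± 0.11 in TRAMP mice after TmT (SD, n = 10 spots), -2.02 ± 0.37 in TRAMP mice after oil (SD, n = 9 spots), -2.26 ± 0.20 in C57BL/6 mice after TmT (SD, n = 10 spots) and -2.17 ± 0.10 in C57BL/6 mice after oil (SD, n = 9 spots). TRAMP mice after TmT were the lowest, at a difference of -0.53 ± 0.10 from C57BL/6 mice after TmT.

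The other 10-spot probe of Egfr, A_52_P106259 (chr11:16813815-16813874, plus strand, mm9), is assigned to the longer transcript named variant 1. Its level was -0.13 ± 0.16 in TRAMP mice after TmT (SD, n = 9 spots), -0.23 ± 0.17 in TRAMP mice after oil (SD, n = 8 spots), -1.39 ± 0.08 in C57BL/6 mice after TmT (SD, n = 8 spots) and -0.73 ± 0.16 in C57BL/6 mice after oil (SD, n = 10 spots). The lowest spot of the TRAMP arrays was -0.44, after oil, and the highest of the C57BL/6 arrays was -0.59, after oil. The share of all probes printed 10 times that separate in this way is not given here. The difference between the lines was 1.26 ± 0.08 after TmT and 0.50 ± 0.08 after oil. Set against the variant 2 probe A_51_P392242, the difference between the lines was larger for the variant 1 probe by 1.79 after TmT and by 0.35 after oil, so the Egfr probes changed unequally.

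Among the Egfr probes printed once, A_52_P674338, also on variant 1, had levels of -0.63 in TRAMP mice after TmT, -2.13 in TRAMP mice after oil, -0.83 in C57BL/6 mice after TmT and -0.56 in C57BL/6 mice after oil. The low value was on the array of TRAMP mice after oil only, and the 8 spots used of A_52_P106259, which lies 3' of it on the same transcript, showed no such low value there. The difference between the lines by A_52_P674338 was 0.21 ± 0.21 after TmT and -1.57 ± 0.22 after oil. Probe A_52_P5855, designed on a cDNA clone (chr11:16655638-16655697, plus strand, mm9), had levels of -1.29 in TRAMP mice after TmT, -1.56 in TRAMP mice after oil, -3.99 in C57BL/6 mice after TmT and -2.28 in C57BL/6 mice after oil. The probe lies 5' of all other Egfr probes, the nearest of which starts at 16783545. Whether it reads the receptor transcript was not examined. It was low in C57BL/6 mice after TmT, and the difference between the lines was 2.70 ± 0.33 after TmT and 0.72 ± 0.21 after oil. The sixth probe, A_52_P175190, also from a cDNA clone, was dim on every array, at -4.14 to -3.20, and was not well above background in TRAMP mice after TmT.

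Over all probes of the members, 3 of 17 measured after TmT differed at least 2-fold between the lines, Egfr A_52_P5855 and A_52_P106259 higher and Egf lower, where 15.3% of all measured probes did, 8.94% higher and 6.32% lower. With the normexp background both Egfr probes came below 2-fold, at 0.90 and 0.73, and Egf did not. After oil it was 5 of 20 probes, where 15.4% did, 7.77% higher and 7.67% lower. The 3 higher ones were A_52_P133607 of Erbb3 and both measured probes of Erbb4, and the 2 lower ones were those of Egf and Egfr A_52_P674338. With the normexp background only Egf of these 5 stayed past 2-fold: Erbb3 A_52_P133607 was at 0.87, the Erbb4 probes were at 0.75 and 0.37, and Egfr A_52_P674338 was at -0.73.

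**Figure D2:**
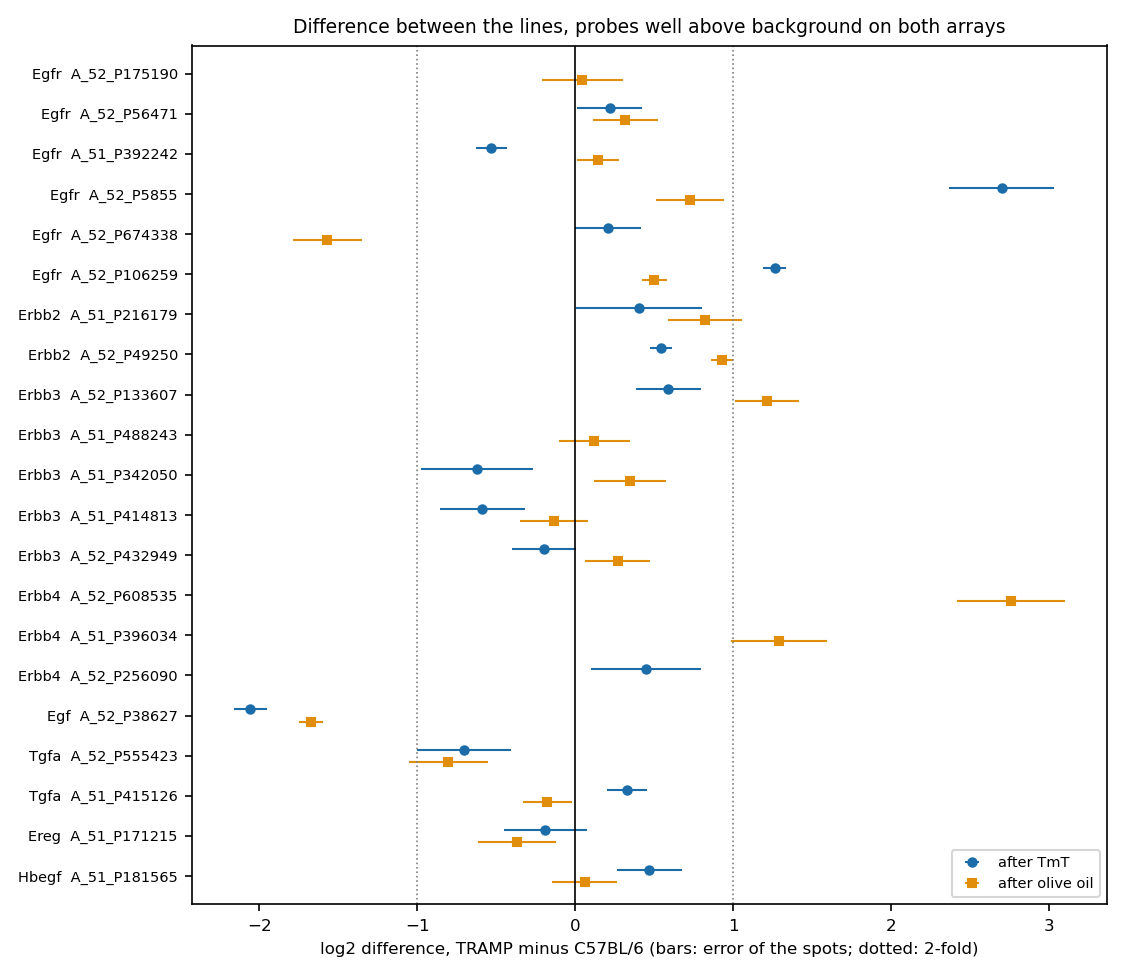
Difference between the lines (TRAMP minus C57BL/6, log2) for each member probe that was well above background on both arrays in at least 1 comparison, after TmT (circles) and after olive oil (squares). Bars are the error of the spots and dotted lines mark 2-fold. Egf lies at -2.06 after TmT and -1.67 after oil, and the Egfr probes spread over both sides of 0.

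Of the ligands, Egf gave the clearest pattern. Egf, the founding ligand of Egfr, was read by 1 probe printed 10 times, A_52_P38627 (chr3:129380826-129380885, minus strand, mm9). Its level was 1.19 ± 0.14 in TRAMP mice after TmT (SD, n = 9 spots), 1.44 ± 0.20 in TRAMP mice after oil (SD, n = 10 spots), 3.24 ± 0.27 in C57BL/6 mice after TmT (SD, n = 9 spots) and 3.11 ± 0.07 in C57BL/6 mice after oil (SD, n = 10 spots). The highest spot of the TRAMP arrays was 1.88 and the lowest of the C57BL/6 arrays was 2.55. The share of all probes printed 10 times that separate in this way is not given here. Egf was lower in TRAMP mice, at -2.06 ± 0.10 after TmT and -1.67 ± 0.08 after oil, or 4.16-fold and 3.18-fold. The treatment difference was smaller, -0.25 ± 0.08 in TRAMP mice and 0.13 ± 0.10 in C57BL/6 mice. Of 8 processing alternatives 5 could change the Egf values, and over these the difference between the lines stayed between -2.15 and -1.98 after TmT and between -1.67 and -1.53 after oil.

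**Figure D3:**
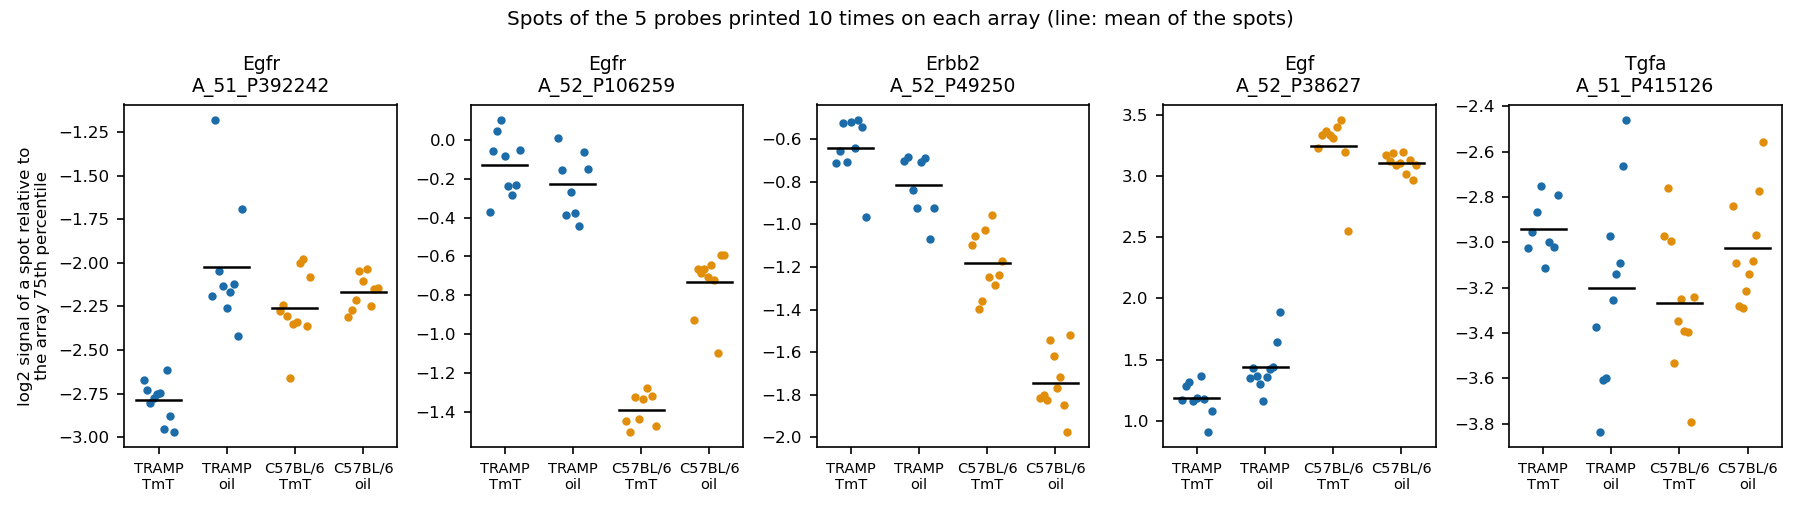
Values of the single spots of the 5 member probes printed 10 times on each array, as log2 intensity relative to the array's 75th percentile. Each panel has its own vertical range, points are spots, lines are their means, and spots marked as outliers by the scanner software are left out. The Egf spots of the TRAMP arrays end at 1.88 and those of the C57BL/6 arrays begin at 2.55, and spots of 1 array are not replicates of mice.

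Other genes also differed between the lines. Of all measured genes, 6.11% were at least 2-fold lower in TRAMP mice after TmT and 7.84% after oil. Of 5 secretory genes of the prostate, 4 were that much lower after TmT and 3 after oil, with medians of -1.57 and -2.95. Their summed level was 742 in TRAMP mice after TmT and 395 in TRAMP mice after oil, against 1283 in C57BL/6 mice after TmT and 1056 in C57BL/6 mice after oil, and none of the 5 was below background on any array. All 5 markers of dividing cells were at least 2-fold higher in TRAMP mice after either treatment, opposite to Egf. Of all measured genes, 8.41% were that much higher after TmT and 7.74% after oil. The summed levels of these 5 markers were 85.5 in TRAMP mice after TmT and 191 in TRAMP mice after oil. In C57BL/6 mice they were 18.4 after TmT and 17.2 after oil. The part of these changes in the Egf and Erbb4 values was not tested, and in whole tissue fewer cells of a type and less RNA per cell cannot be told apart.

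The genes whose 4 levels ran closest to those of Egf, by distance after centring each gene over the 4 arrays and among 16868 genes above background on all of them, were Rnase1, Tradd, Mei1, Smr2 and Rab27a, at distances of 0.19 to 0.24 log2 units. Rnase1 had levels of 2.00 in TRAMP mice after TmT, 2.25 in TRAMP mice after oil, 4.08 in C57BL/6 mice after TmT and 4.15 in C57BL/6 mice after oil. For the Egfr probe A_52_P5855, the member probe above background on all 4 arrays with the widest range, 2.70, the closest named genes were Wipf3 and Ccna2 at distances of 0.35 and 0.38.

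Tgfa, another Egfr ligand, was dim and its 2 probes differed. A_52_P555423 had levels of -3.00 in TRAMP mice after TmT, -3.37 in TRAMP mice after oil, -2.30 in C57BL/6 mice after TmT and -2.56 in C57BL/6 mice after oil, a difference between the lines of -0.71 ± 0.30 after TmT and -0.80 ± 0.25 after oil. The 10-spot probe A_51_P415126 had levels of -2.94 ± 0.13 in TRAMP mice after TmT (SD, n = 8 spots), -3.20 ± 0.43 in TRAMP mice after oil, -3.27 ± 0.30 in C57BL/6 mice after TmT and -3.02 ± 0.24 in C57BL/6 mice after oil (SD, n = 10 spots each). Its spots overlapped between all 4 arrays, and it differed between the lines by 0.33 ± 0.13 after TmT and -0.18 ± 0.16 after oil.

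Hbegf, a ligand of Egfr and Erbb4 that is released from the membrane by proteases, was read by 1 spot per array (chr18:36664738-36664797, minus strand, mm9). Its level was 2.22 in TRAMP mice after TmT, 1.52 in TRAMP mice after oil, 1.75 in C57BL/6 mice after TmT and 1.46 in C57BL/6 mice after oil. It was higher after TmT in TRAMP mice by 0.71 ± 0.20 and in C57BL/6 mice by 0.30 ± 0.20, both under 2-fold. The difference between the lines was 0.47 ± 0.20 after TmT and 0.06 ± 0.20 after oil. With normexp the difference between the lines after TmT was 0.10. Over the alternatives the treatment difference in TRAMP mice went down to 0.29. Before scaling, the intensity of Hbegf was 333 units in TRAMP mice after TmT and 397 units in TRAMP mice after oil. Ereg, epiregulin, had levels of -2.50 in TRAMP mice after TmT, -2.97 in TRAMP mice after oil, -2.31 in C57BL/6 mice after TmT and -2.60 in C57BL/6 mice after oil by A_51_P171215, a span of less than 2-fold. The other Ereg probe, which maps to the opposite strand, was not above background on any array. Areg, amphiregulin, read -6.38 to -5.26 and the 2 probes of Btc, betacellulin, -6.75 to -4.43, none of them marked well above background by the scanner software.

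The comparison of TmT with oil asked what the tocopherol mixture did within each line. By their brightest probes no member differed 2-fold. In TRAMP mice it was 0 of 8 members, where 13.5% of 17428 genes differed, 8.67% higher and 4.86% lower, and in C57BL/6 mice 0 of 7, where 5.78% of 18722 genes differed, 3.15% higher and 2.63% lower. The members' median difference was 0.16 in TRAMP mice, against 0.10 for all genes, and 0.26 in C57BL/6 mice, against 0.02 for all genes. With arrays centred on their medians, 52.0% of the different genes in TRAMP mice were higher after TmT, against 64.1% with the 75th percentile. In TRAMP mice the member furthest from 0 was Hbegf at 0.71, and in C57BL/6 mice it was Erbb2 at 0.56 ± 0.07. The other Erbb2 probe, A_51_P216179, went the other way in C57BL/6 mice, at -0.66 ± 0.32, and the mean over both probes was -0.05. Erbb2 was 0.17 ± 0.07 higher after TmT in TRAMP mice.

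Single probes went further. In TRAMP mice 3 of 18 member probes differed at least 2-fold between TmT and oil, 1 higher and 2 lower, where 13.5% of probes did, 8.14% higher and 5.32% lower. The higher one was Egfr A_52_P674338, at 1.51 ± 0.22, which rests on its low value in TRAMP mice after oil. The lower ones were Erbb2 A_51_P216179, at -1.08 ± 0.33, and Erbb3 A_51_P342050, at -1.16 ± 0.34. In C57BL/6 mice it was 1 of 18 probes, Egfr A_52_P5855 at -1.71 ± 0.33, where 6.27% of probes differed, 3.08% higher and 3.19% lower. With the normexp background 0 of these 4 probe differences stayed past 2-fold. The Erbb4 probe A_52_P256090 was at least 2.36-fold higher after TmT in C57BL/6 mice, since it was not well above background after oil.

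The lower probes of Erbb2 and Erbb3 lie in matching parts of the receptor transcripts. They and Erbb4 A_51_P396034 read the same stretch of the sequence that encodes the kinase domain, and they are shown because they bear on how receptor probes differ after TmT in TRAMP mice. Capitals mark the bases that are the same in all 3 receptors, 33 of 56 aligned bases or 58.9%.
Erbb2 A_51_P216179: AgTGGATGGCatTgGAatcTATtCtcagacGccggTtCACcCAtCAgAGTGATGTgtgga
Erbb3 A_51_P342050: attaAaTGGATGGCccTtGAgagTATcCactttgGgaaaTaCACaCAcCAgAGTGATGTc
Erbb4 A_51_P396034: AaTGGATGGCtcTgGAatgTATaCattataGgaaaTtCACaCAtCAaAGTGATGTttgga
These probes lie at chr11:98295824-98295883 (plus strand), chr10:128009195-128009254 (minus strand) and chr1:68125116-68125175 (minus strand) of mm9. By pairs, Erbb3 and Erbb4 shared 44 of 56 aligned bases, Erbb2 and Erbb4 42 of 60, and Erbb2 and Erbb3 35 of 56.

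Erbb3 has a further probe, A_51_P488243, that overlaps A_51_P342050 by 40 bases, shown in capitals, so these probes share most of their target and are not separate readings.
Erbb3 A_51_P488243: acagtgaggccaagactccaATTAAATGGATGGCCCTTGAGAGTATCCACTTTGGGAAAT
Erbb3 A_51_P342050: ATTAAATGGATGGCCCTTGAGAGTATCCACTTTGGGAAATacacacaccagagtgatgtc
A_51_P342050 had levels of -3.42 in TRAMP mice after TmT, -2.26 in TRAMP mice after oil, -2.80 in C57BL/6 mice after TmT and -2.60 in C57BL/6 mice after oil. A_51_P488243 had levels of -3.61 in TRAMP mice after TmT, where it was not well above background, -2.56 in TRAMP mice after oil, -2.38 in C57BL/6 mice after TmT and -2.67 in C57BL/6 mice after oil. Both were lowest in TRAMP mice after TmT, and A_51_P488243 was at least 1.96-fold lower there than after oil. Erbb4 A_51_P396034 was at least 1.39-fold lower after TmT in TRAMP mice.

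The other probes of the same receptors did not move by 2-fold between TmT and oil in TRAMP mice. The differences were 0.17 ± 0.07 for Erbb2 A_52_P49250, -0.33 ± 0.20 and -0.31 ± 0.20 for the probes A_52_P133607 and A_52_P432949 of Erbb3, and -0.58 ± 0.26 for Erbb3 A_51_P414813. For Erbb4 they were 0.14 ± 0.23 at A_52_P608535 and 0.28 ± 0.33 at A_52_P256090. Dim probes of other members went both ways between TmT and oil in TRAMP mice. Egfr A_51_P392242 was lower, at -0.77 ± 0.14, and Egfr A_52_P175190 was at least 1.26-fold lower. Tgfa A_52_P555423 and A_51_P415126 were higher, at 0.36 ± 0.32 and 0.26 ± 0.16, as was Ereg A_51_P171215 at 0.47 ± 0.27. The probes in the kinase sequence were dim, with intensities of 4.85 to 6.96 units in TRAMP mice after TmT and 16.8 to 29.1 units in TRAMP mice after oil. With the normexp background the difference turned positive, 0.15 for Erbb2 A_51_P216179 and 0.17 for Erbb3 A_51_P342050.

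**Figure D4:**
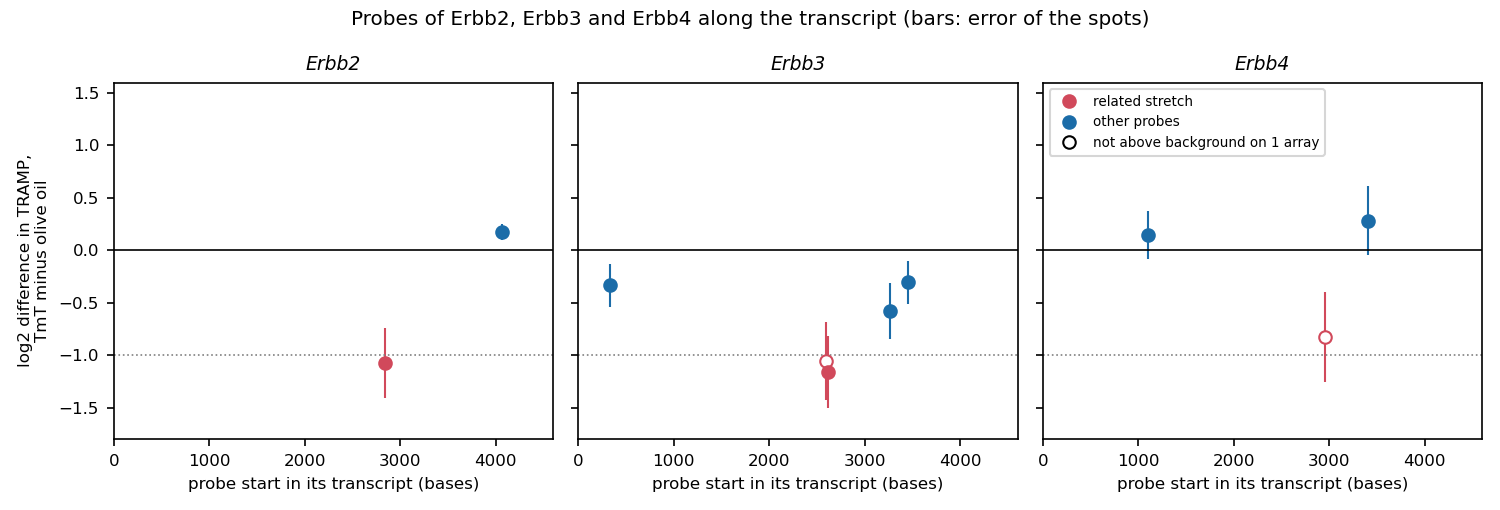
Difference between TmT and olive oil in TRAMP mice (log2) for each probe of Erbb2, Erbb3 and Erbb4, against the start of the probe in its transcript in bases. Red probes lie in the related stretch of the kinase sequence, blue ones elsewhere, open symbols were not well above background on 1 of the 2 arrays, and bars are the error of the spots. The red probes lie lowest in each panel, with -1.08 for Erbb2 and -1.16 for the filled Erbb3 symbol, and these signs turned with another background correction.

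Of the 16 member probes above background on all 4 arrays, 2 differed at least 2-fold between the lines in their response to TmT, where 18.8% of 24371 such probes did. Both were Egfr probes printed once, A_52_P5855 at 1.97 ± 0.39 and A_52_P674338 at 1.78 ± 0.30, as TmT minus oil in TRAMP mice less the same in C57BL/6 mice. The 10-spot Egfr probes gave 0.76 ± 0.11 for A_52_P106259 and -0.68 ± 0.16 for A_51_P392242, which are opposite in sign.

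The genes around the receptors were taken from 5 further lists, 80 genes in all, of which 78 had a probe under their name. In TRAMP against C57BL/6 mice 2 were at least 2-fold higher and 3 lower of 70 measured after TmT, and 2 higher and 6 lower of 72 after oil, where 14.5% and 15.6% of all genes were that different. For TmT against oil it was 5 higher and 7 lower of 70 in TRAMP mice, and 0 higher and 4 lower of 71 in C57BL/6 mice, where 13.5% and 5.78% of all genes differed. Their medians lay between -0.05 and 0.12 in the 4 comparisons.

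Of the 5 other ErbB ligands, 4 were on the array and Nrg1 and Nrg4 were measured. Nrg4, a neuregulin that binds Erbb4, had levels of -1.09 in TRAMP mice after TmT, 0.84 in TRAMP mice after oil, -1.44 in C57BL/6 mice after TmT and -0.19 in C57BL/6 mice after oil. It was lower after TmT in both lines, at -1.93 ± 0.21 in TRAMP mice and -1.25 ± 0.21 in C57BL/6 mice, and higher in TRAMP than in C57BL/6 mice after oil by 1.03 ± 0.20. Adipose tissue is a known source of Nrg4, and the summed level of 6 adipocyte markers was 29.1 in TRAMP mice after TmT, 247 in TRAMP mice after oil, 23.6 in C57BL/6 mice after TmT and 44.1 in C57BL/6 mice after oil. All 6 were at least 2-fold higher in TRAMP than in C57BL/6 mice after oil, where 7.74% of all genes were. For TmT against oil in C57BL/6 mice the 5 measured markers split, with a median of -0.33. Fabp4 was lower at -1.16, Adipoq at -0.62 and Cfd at -0.33, while Cidec and Plin1 were higher at 0.70 and 0.39. The part of these markers in the Nrg4 values was not tested. Nrg1, the neuregulin of Erbb3 and Erbb4, had levels of -1.52 in TRAMP mice after TmT, -1.93 in TRAMP mice after oil, -2.30 in C57BL/6 mice after TmT and -2.46 in C57BL/6 mice after oil, and differed by less than 2-fold in each comparison.

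Among 7 genes of ligand release, Adam10, a protease that frees Egf and Btc from the membrane, had levels of -1.65 in TRAMP mice after TmT, -0.66 in TRAMP mice after oil, -2.37 in C57BL/6 mice after TmT and -1.27 in C57BL/6 mice after oil. It was lower after TmT, at -0.99 ± 0.22 in TRAMP mice and at -1.10 ± 0.23 in C57BL/6 mice, and the value in C57BL/6 mice was the only one of this list past 2-fold in any of the 4 comparisons. Adam17, which releases Tgfa, Areg and Hbegf, was 0.59 in TRAMP mice after TmT, 0.86 in TRAMP mice after oil, 0.68 in C57BL/6 mice after TmT and 0.95 in C57BL/6 mice after oil.

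Of 13 genes that restrain the receptors, 1 was at least 2-fold higher and 2 were lower after TmT in TRAMP mice. Of all genes, 8.67% were higher and 4.86% lower by that rule. The higher one was Cbl, a ubiquitin ligase that sends active Egfr to degradation, at 1.02 ± 0.21, and the lower ones were Lrig3 at -1.17 ± 0.34 and Socs4 at -1.24 ± 0.24. Lrig3 was dim after TmT in TRAMP mice, at -3.43. The lowest level that this array read well above background was -3.53. Cbl had levels of 0.37 in TRAMP mice after TmT, -0.65 in TRAMP mice after oil, 0.00 in C57BL/6 mice after TmT and 0.43 in C57BL/6 mice after oil, so TRAMP mice after oil were the low group. None of the 13 differed 2-fold between TmT and oil in C57BL/6 mice, where 5.78% of all genes did. Between the lines, 1 of the 13 was at least 2-fold different after TmT, where 14.5% of all genes were. It was Lrig3, lower in TRAMP mice at -1.04 ± 0.35. After oil Cblb was 1.15 ± 0.27 higher and Cbl lower, at -1.08 ± 0.21, in TRAMP mice, where 15.6% of all genes differed. Cblb was dim, at -2.55 in TRAMP mice after oil and -3.70 in C57BL/6 mice after oil.

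Of 37 adaptors and kinases downstream, 36 were measured for TmT against oil in TRAMP mice, where 13.5% of all genes differed at least 2-fold. By that rule 1 of the 36 was higher and 4 were lower after TmT, where 8.67% of all genes were higher and 4.86% lower. Pik3r3, a regulatory subunit of PI3K, was 1.40 ± 0.21 higher. Among the lower ones were Gab1, a docking protein of Egfr, at -1.49 ± 0.20, the adaptor Crkl at -1.11 ± 0.22 and the kinase Pak1 at -1.21 ± 0.21. Gab1 had levels of 1.13 in TRAMP mice after TmT, 2.63 in TRAMP mice after oil, 2.39 in C57BL/6 mice after TmT and 2.00 in C57BL/6 mice after oil, so TRAMP mice after TmT were the low group. None of 36 differed 2-fold between TmT and oil in C57BL/6 mice, where 5.78% of all genes did. Between the lines after TmT, Gab1 and Hras were lower, at -1.25 ± 0.20 and -1.27 ± 0.20 in TRAMP mice. After oil, Pik3r3 and Src were lower in TRAMP mice, at -1.62 ± 0.21 and -1.41 ± 0.19.

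Among the feedback inhibitors and targets of ERK, Dusp4, Dusp6 and Ier3 were lowest on the array of TRAMP mice after oil. After TmT in TRAMP mice of 14 measured genes 3 were higher by 2-fold or more and 0 lower, where 8.67% of all genes were higher and 4.86% lower, and the median was 0.44 against 0.10 for all genes. They were Dusp4 at 2.02 ± 0.20 and Dusp6 at 1.19 ± 0.20, phosphatases that act on ERK, and Ier3 at 1.36 ± 0.30, an early response gene. In TRAMP against C57BL/6 mice after oil the same 3 genes were lower, at -1.33 ± 0.20, -1.08 ± 0.20 and -2.35 ± 0.28, and these comparisons share the array of TRAMP mice after oil. Dusp4 had levels of 3.17 in TRAMP mice after TmT, 1.16 in TRAMP mice after oil, 1.29 in C57BL/6 mice after TmT and 2.48 in C57BL/6 mice after oil. Ier3 was dimmer, at -1.91 in TRAMP mice after TmT and -3.26 in TRAMP mice after oil. Its level was -2.05 in C57BL/6 mice after TmT and -0.91 in C57BL/6 mice after oil. In C57BL/6 mice Dusp4 and Ier3 were lower after TmT, at -1.19 ± 0.20 and -1.14 ± 0.22, so the sign of their treatment difference was opposite in the lines. Dusp4 was also 1.88 ± 0.20 higher in TRAMP than in C57BL/6 mice after TmT. Markers of several cell types also differed between TmT and oil in TRAMP mice. All 5 measured adipocyte markers were lower by 2-fold or more (median -3.37), while 2 of 4 basal epithelial and 2 of 5 smooth muscle markers were at least 2-fold higher, with medians of 0.81 and 0.60. For 5 fibroblast markers the summed level was 86.8 in TRAMP mice after TmT, 44.1 in TRAMP mice after oil, 92.9 in C57BL/6 mice after TmT and 108 in C57BL/6 mice after oil, and 4 of 5 were at least 2-fold higher after TmT in TRAMP mice. The part of these markers in the result was not tested.

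**Figure D5:**
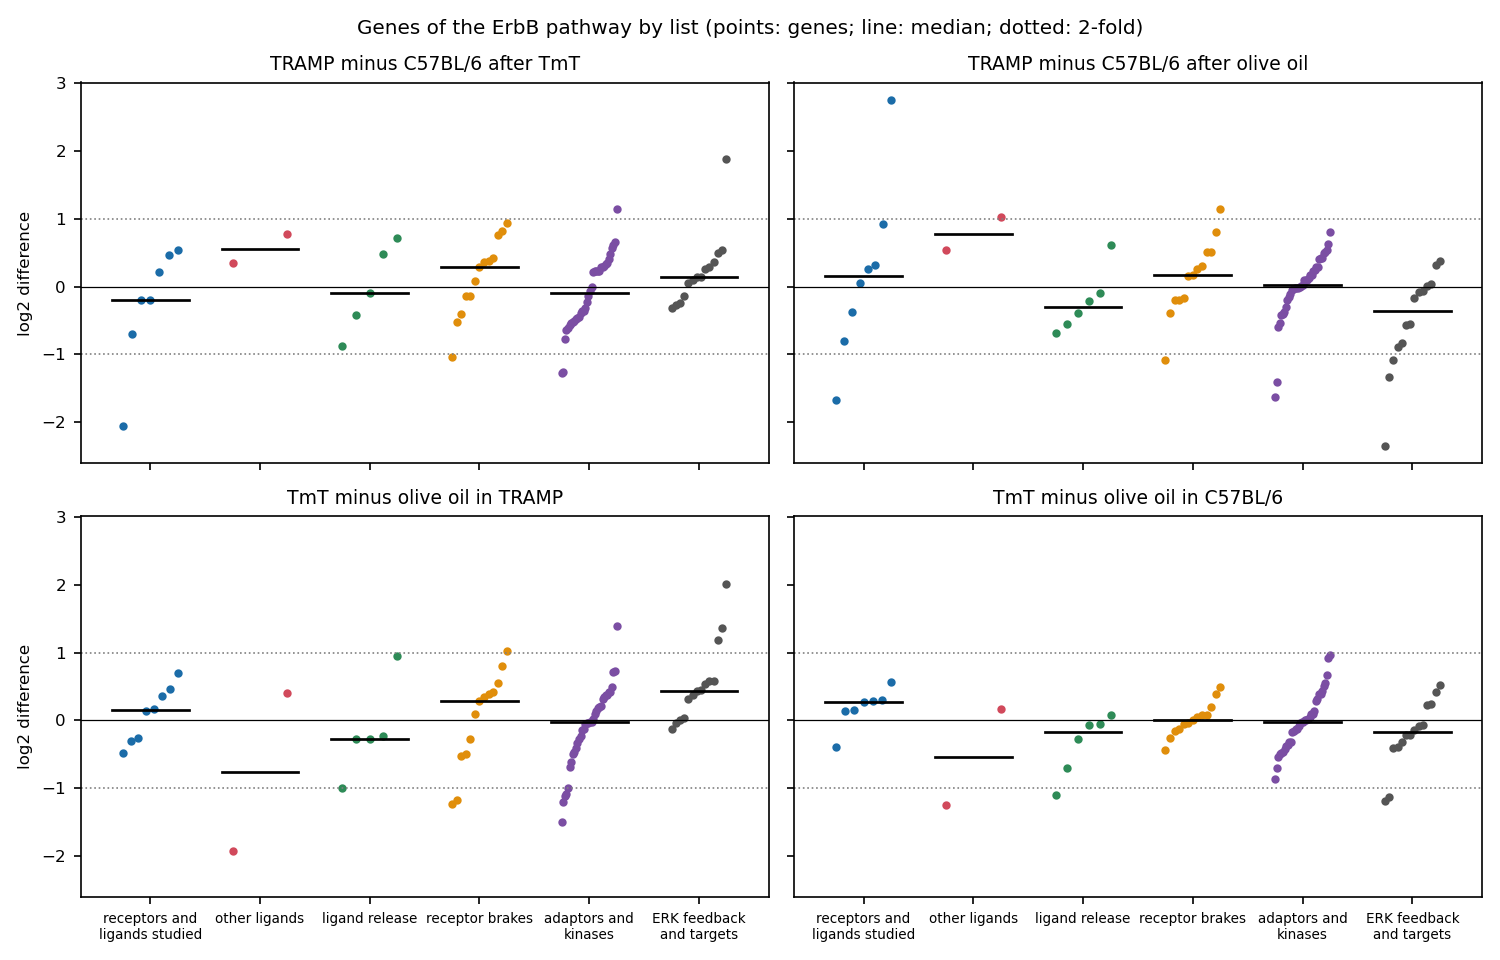
Log2 differences of genes of the ErbB pathway in the 4 comparisons, by list, for genes above background on both arrays. Points are genes by their brightest probe, black lines are medians, and dotted lines mark 2-fold. The ERK feedback and target list has its median at 0.44 for TmT against oil in TRAMP mice and at -0.36 for TRAMP against C57BL/6 mice after oil, while the lists of adaptors and kinases stay near 0.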

How the data were processed

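Prostate RNA of 4 groups was measured on 4 one-colour arrays. The authors deposited scanner output, a linear intensity per spot (processed signal), which Agilent Feature Extraction 10.2.1.3 had background-subtracted and detrended, per the file headers; its multiplicative detrending was not applied to the array of TRAMP mice after TmT. The deposited value table holds the same intensities for all 45018 features, on a linear scale and not centred, with medians of 13.8 for TRAMP mice after TmT, 25.3 for TRAMP mice after oil, 21.3 for C57BL/6 mice after TmT and 30.2 for C57BL/6 mice after oil. Probe positions are those of the files, on mm9. Exons under the probes were not annotated here.

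Control spots and spots that the scanner software marked as outliers were left out, log2 of the 75th percentile of the array was subtracted, and spots of a probe were averaged. A gene was its name in the files, read by its brightest probe, and symbols of listed genes were updated through RefSeq accessions. The error of a level is the larger of the software's spot error and the standard error between spots. Where only 1 array was well above background, the difference is a bound, the bright value set against the dim value or, where higher, the lowest level at which that array still read a probe well above background. With 1 array per group no test was run, and the number of arrays limits the precision. The text names all members, genes of the pathway lists at least 2-fold different in a comparison, and the 5 genes closest to Egf and to the Egfr probe of widest range; Adam17 and Nrg1 were added after their values were seen. Some genes of the list of adaptors and kinases are not reported here by name. The members and lists were chosen with earlier results of these data known. Alternatives were quantile normalization, median centring, normexp (limma 3.58.1 in R 4.3.3), no background filter, the mean over probes, outlier spots kept, the deposited table and no multiplicative detrending. The calculation of differences and counts was tested on simulated data.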

Additional observations from a re-analysis of the deposited data

Results flagged for a closer look

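A pair of Egfr probes, each printed once per array, went opposite ways in the lines or treatments with at least 1 of the differences past 2-fold; the difference itself was not tested, since each group has 1 array. Egfr probe A_52_P5855 differed between TmT and oil by 0.27 in TRAMP mice and by -1.71 in C57BL/6 mice. Egfr probe A_52_P674338 differed between TmT and oil by 1.51 in TRAMP mice and by -0.27 in C57BL/6 mice, and between TRAMP and C57BL/6 mice by 0.21 after TmT and by -1.57 after oil. With the normexp background the treatment differences were 0.27 and -0.18 for A_52_P5855 and 0.93 and -0.04 for A_52_P674338, in TRAMP and in C57BL/6 mice.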

How the results depend on the processing

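Over the single members and probes, the 8 alternatives gave 541 values, of which 464 moved by less than their spot error. The 464 include 73 values each from the deposited table and from no background filter, which could not change a value. With normexp 32 of 73 values moved by less than their spot error. No such values are given here for single genes of the other pathway lists, dim ones included. The sign turned in 25 of the 541 values, 19 with the normexp background, 3 with the mean over probes, 2 without multiplicative detrending and 1 with outlier spots kept. Of differences past 2-fold, 2 turned, both between TmT and oil in TRAMP mice with normexp: 0.15 for Erbb2 A_51_P216179 and 0.17 for Erbb3 A_51_P342050. Among the others, Egfr A_51_P392242 was 0.21 instead of -0.77 for TmT against oil in TRAMP mice and 0.19 instead of -0.53 for TRAMP against C57BL/6 mice after TmT with normexp, and Erbb2 was -0.45 instead of 0.17 in TRAMP mice with the mean over probes. Normexp adds 50 units, which shrinks differences of dim probes by construction; in it, spots flagged for their local background took the array's median background, a choice made after seeing the data because the planned fit failed on both TmT arrays. The alternative without multiplicative detrending was also chosen after seeing the data. It moved Erbb2 in TRAMP against C57BL/6 mice after oil to 1.13. Members at least 2-fold different after oil between the lines numbered 1 with normexp, against 2, and after TmT 2 without the background filter and 2 with the mean over probes, against 1. The count of all genes for TRAMP against C57BL/6 mice after TmT and after oil was 2511 and 2944; it was 779 and 1137 with normexp and 5387 and 5734 without the filter. For TmT against oil it was 2358 in TRAMP and 1082 in C57BL/6 mice; it was 921 and 188 with normexp and 6269 and 3251 without the filter. Genes higher in TRAMP mice made up 27.9% of the different genes after TmT and 39.2% after oil with normexp, against 57.9% and 49.7%. No paired analysis was possible because each group has 1 array, and no replicate could be left out. Signal over background limits the dim probes: Areg and Btc have no level, and the array of TRAMP mice after TmT had the fewest spots above background.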
